A study of Mus musculus with 6 samples.

Results

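Smo and Ptch1, 2 genes of the Hedgehog pathway, were examined in RNA sequencing of brainstem gliomas from C57BL/6 mice. The members are the rows named Smo and Ptch1 in the deposited gene table, 2 of its 223 genes. Both were selected on measured values: the table holds only genes with an adjusted p under 0.05 in the authors' own test between the tumour groups, so a difference between these groups is what placed either gene there. It is given here as a description and was not tested again. The hosts of all 6 tumours carried floxed p53 and Nestin tv-a, a transgene that gives nestin-expressing progenitors a receptor for avian retroviruses. PDGF-B, a growth factor, and p53 loss were common to all 6 as well. H3.3K27M, a mutant H3.3 histone with methionine for lysine, was present in 3 tumours, and 3 lacked it. The titles of the latter read H3.3WT, and whether a wild-type H3.3 was introduced into them is not stated. Age, sex and the time to tumour formation are not stated in these sources. The first number in the title is 12 for every H3.3K27M tumour and 11 for every other, so whatever it marks cannot be told apart from the mutation. A second title number, 623, is common to replicates 1 and 2 with H3.3K27M, while replicate 3 has 703, and its meaning is not stated. The series' design text describes the tumours of each group as independent.

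In the Hedgehog pathway, the secreted ligands Shh, Ihh and Dhh bind the receptor Patched 1, the product of Ptch1. Without ligand, Patched 1 keeps the membrane protein Smoothened, the product of Smo, from entering the primary cilium and signalling. With ligand, Smoothened acts through Gli transcription factors, which switch on target genes that include Ptch1 itself, a negative feedback loop. In the hindbrain the pathway drives the expansion of cerebellar granule cell progenitors and patterns the ventral neural tube, and in the adult brain astrocytes and neural stem cells respond to it. H3.3K27M is known to inhibit PRC2, the complex that methylates lysine 27 of histone H3 at CpG-rich promoters.

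The promoters of both genes are shown because PRC2 is known to act mainly at CpG-rich promoters and because Gli factors act on the Ptch1 promoter. The sequences are those of RefSeq on GRCm38.p6, from 250 bases before to 50 bases after an annotated start, 5′ to 3′ on the gene's strand, with each CpG in capitals. The Smo window lies at chr6:29735247-29735546 on the plus strand. The Ptch1 window lies at chr13:63565686-63565985 on the minus strand, and its start is 7725 bases inside the outermost start of the gene.
Smo: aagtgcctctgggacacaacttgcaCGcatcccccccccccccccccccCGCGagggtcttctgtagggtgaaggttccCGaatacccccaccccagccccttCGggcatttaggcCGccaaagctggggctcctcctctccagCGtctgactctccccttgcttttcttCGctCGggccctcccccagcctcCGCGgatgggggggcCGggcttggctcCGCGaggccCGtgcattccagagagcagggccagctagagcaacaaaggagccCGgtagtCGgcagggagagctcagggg
Ptch1: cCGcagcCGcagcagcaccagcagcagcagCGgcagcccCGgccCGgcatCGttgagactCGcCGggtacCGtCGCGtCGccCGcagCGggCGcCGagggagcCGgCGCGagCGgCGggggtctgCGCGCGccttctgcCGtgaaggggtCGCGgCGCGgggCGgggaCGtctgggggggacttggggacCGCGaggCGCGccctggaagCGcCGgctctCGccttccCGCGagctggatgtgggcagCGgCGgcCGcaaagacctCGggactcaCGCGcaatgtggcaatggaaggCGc

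The Ptch1 window held 47 CpGs and the Smo window 17, against a median of 7 over 32851 promoter windows of the same length. As many CpGs as in Ptch1 were found in 1.44% of all windows, and as many as in Smo in 31.4%. The observed number of CpGs over that expected from base composition was 1.09 in Ptch1 and 0.504 in Smo. The 9 bases GACCACCCA, the classical Gli binding motif, were searched on both strands. Neither window held the motif, which is present in 0.253% of all windows. Its shorter core CCACCCA, which lies inside the full motif, was absent from both windows as well and present in 9.3% of all windows. No match says only that these letters are not in these 300 bases. Histone marks and factor binding at these promoters were not analysed here.

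Smo (ENSMUSG00000001761, chromosome 6), the signal transducer, was at 634, 558 and 521 normalized counts in H3.3K27M replicates 1, 2 and 3 and at 283, 264 and 236 in replicates 1, 2 and 3 without the mutation. Normalized counts are read counts that the authors scaled to make the libraries comparable. All 3 H3.3K27M tumours were above all 3 others, as they were for 81.6% of the listed genes, while 99.6% had no overlap in either direction. This separation comes with the selection of the table. For Smo the lowest H3.3K27M tumour was 1.84-fold above the highest tumour without the mutation. The group levels were 571 ± 57.2 and 261 ± 23.8 normalized counts (SD, n = 3 each). A 2.19-fold rise with adjusted p = 1.94e-04 stands in the authors' deposited table. The spread was alike in proportion, with a coefficient of variation of 10.02% with and 9.12% without H3.3K27M.

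Ptch1 (ENSMUSG00000021466, chromosome 13), the receptor and a target of the pathway, was at 2039, 2171 and 2213 normalized counts in H3.3K27M replicates 1, 2 and 3. In replicates 1, 2 and 3 without the mutation it was at 1199, 1295 and 1626. The groups did not overlap, but the gap was narrower than for Smo, with the lowest H3.3K27M tumour 1.25-fold above the highest of the others. The group levels were 2141 ± 90.6 and 1373 ± 224 normalized counts (SD, n = 3 each). For this gene the authors' deposited table has a 1.56-fold rise with adjusted p = 0.00899. Replicate 3 without H3.3K27M stood above the other 2 of its group. Without that tumour the ratio of the group means was 1.72, and over the fits that each left out 1 of the 6 tumours it lay between 1.47 and 1.72. For Smo the same range was 2.07 to 2.28.

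The tumours with H3.3K27M were close together in Ptch1, with a coefficient of variation of 4.23%, the 6th lowest of the 223 listed genes in that group, whose median was 22.2%. Without the mutation the coefficient was 16.3%, against a median of 20.8%. The steps between values in the table allow the reads behind each value to be estimated. They came to 216 to 672 reads per tumour for Smo and 1191 to 2296 for Ptch1. Counting reads would by itself give an SD of 23.6 normalized counts for Smo with and 16.3 without H3.3K27M, so the spread between tumours was 2.42 and 1.46 times the counting error. For Ptch1 it was 1.98 times the counting error with H3.3K27M and 5.96 times without it. Intervals from counting cover counting error only.

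**Figure D1:**
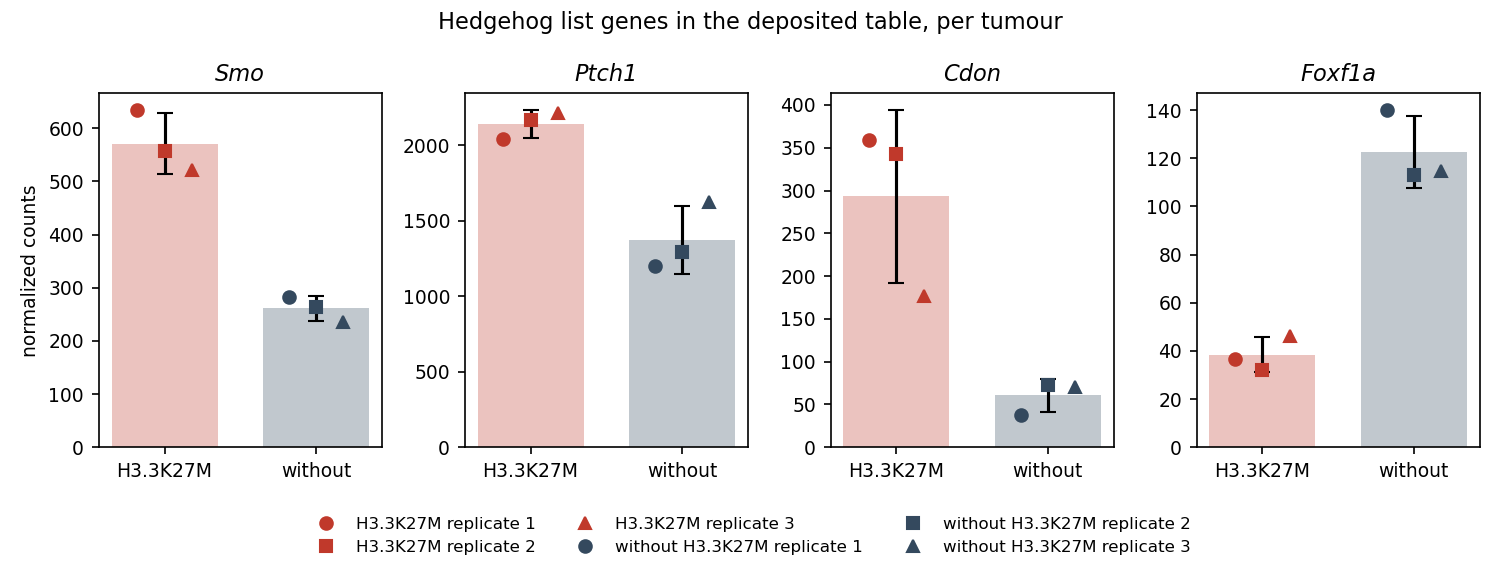
Normalized counts (y axes, each from 0) of the 4 Hedgehog list genes that the deposited table holds; bars are group means, error bars the SD of 3 tumours, and each symbol is 1 tumour. Smo, Ptch1 and Cdon are higher and Foxf1a is lower in every H3.3K27M tumour than in any tumour without the mutation.

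Within each group Smo and Ptch1 ran in opposite orders. The H3.3K27M tumour with the most Smo had the least Ptch1, and the one with the least Smo had the most Ptch1. The same was true of the 3 tumours without the mutation. With 3 tumours in each group this is a description, and most of the steps in these orders are within counting error. Of the 8 gaps between neighbours, 3 were over 2 combined counting SDs, namely that below the top Smo value and that above the lowest Ptch1 value with H3.3K27M, and that below the top Ptch1 value without it. The others were between 0.63 and 1.94 such SDs. Of the other 222 listed genes, 5, Smo among them, had the reverse of the Ptch1 order in both groups and 5 had the same order as Ptch1. The plot of Smo against Ptch1 shows 2 sets of tumours that are apart in both genes, each sloping downward.

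**Figure D2:**
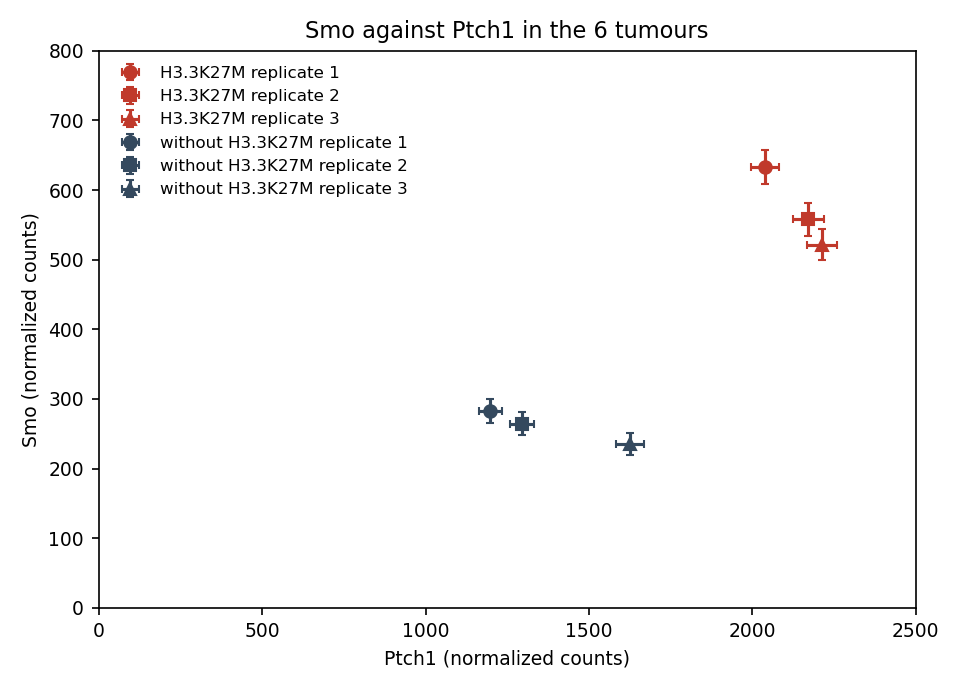
Smo (y axis) against Ptch1 (x axis) in normalized counts, 1 symbol per tumour, with error bars of 1 SD from counting reads alone. H3.3K27M tumours lie at 521 to 634 of Smo and 2039 to 2213 of Ptch1, and the others at 236 to 283 and 1199 to 1626.

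The level of Smo relative to Ptch1 was taken within each tumour, where the library scaling cancels. Per 100 normalized counts of Ptch1, Smo was at 31.1, 25.7 and 23.56 in H3.3K27M replicates 1, 2 and 3 and at 23.59, 20.4 and 14.5 in the others. The groups overlapped by this measure, with means of 26.8 ± 3.87 and 19.5 ± 4.62 (SD, n = 3 each). The ratio of means of Smo was 1.4 times that of Ptch1, and between 1.21 and 1.56 times when 1 tumour was left out. Per kilobase of annotated exon (GENCODE M21, all isoforms joined), the mean level of Ptch1 was 151 normalized counts with and 96.8 without H3.3K27M, above that of Smo, at 102 and 46.4. On this scale Ptch1 was the more abundant of both transcripts in either group.

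Among the 182 genes that rose with H3.3K27M in the authors' deposited table, the median rise was 2.99-fold. Smo was 129th and Ptch1 171st of these 182 by size of rise. By adjusted p they were 29th and 89th of all 223 genes, and by mean level over the 6 tumours 100th and 34th. Both rises were smaller than that of most genes that rose. The table ends at an adjusted p of 0.0495, and the last gene in it, A930038C07Rik, rose 4.65-fold.

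**Figure D3:**
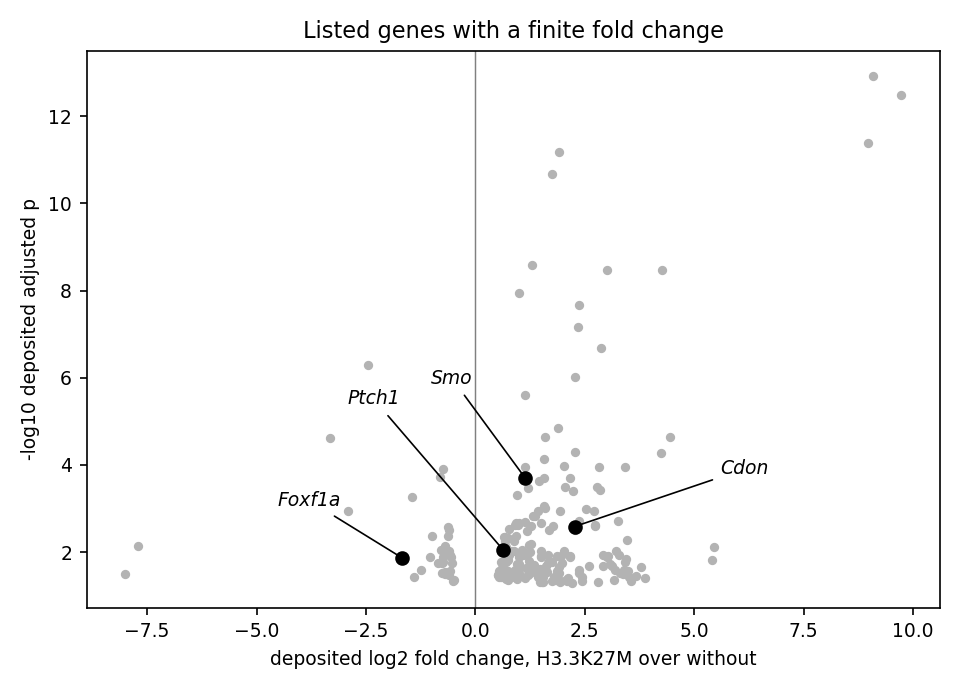
Deposited log2 fold change (x axis, H3.3K27M over the other tumours) against -log10 of the deposited adjusted p (y axis) for listed genes with a finite fold change, with the Hedgehog list genes in black. Smo lies at 1.13 and Ptch1 at 0.64 on the log2 axis, Cdon at 2.27 and Foxf1a at -1.68.

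Other genes of the pathway were looked up in a list of 59 genes, Smo and Ptch1 included. The list was drawn up with earlier results of these data known. Of the 57 others, 2 are in the table (3.51%), beside 1.36% of the 16365 genes tested. Of the 57, 1 rose (1.75%), beside 1.11% of all genes tested that rose. A gene that is not in the table either stayed above the authors' threshold or was not tested, and has no value here. None of the 8 genes of ligands and their release, which include Shh, Ihh and Dhh, is in the table. The 3 Gli factors Gli1, Gli2 and Gli3 are not in it, nor are the 13 genes of the cilium and of Smoothened regulation or the 15 kinases, ligases and inhibitors that act on Gli, Sufu among them. Of 7 receptors and co-receptors, Ptch1 and Cdon are in it. Of 16 genes known as targets, Ptch1 and Foxf1a are in it, 1 higher and 1 lower, so Gli1 and Hhip, the targets most often read as signs of pathway activity, have no value here. The median fold of the 4 list genes in the table, Smo and Ptch1 included, was 1.85, beside 2.48 over all 223 listed genes. With Foxf1a below and Cdon above, this median is the midpoint of Smo and Ptch1 on the log2 scale and says nothing more of the pathway.

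Cdon (ENSMUSG00000038119, chromosome 9) encodes a cell surface co-receptor that binds Hedgehog ligands together with Patched 1. It was at 359, 343 and 177 normalized counts in H3.3K27M replicates 1, 2 and 3 and at 38.2, 73.2 and 70.9 in the others. The groups did not overlap. By difference in normalized counts, H3.3K27M replicate 3 was nearer to the highest tumour without the mutation than to the next of its own group. By ratio the reverse held, and replicate 3 was 2.42-fold above that tumour without the mutation. The means were 293 ± 101 and 60.8 ± 19.5 (SD, n = 3 each). Its rise in the authors' deposited table was 4.82-fold with adjusted p = 0.00257. This rise was larger than that of Smo or Ptch1 and its spread wider, with coefficients of variation of 34.3% and 32.2%. Foxf1a (ENSMUSG00000042812, chromosome 8), now named Foxf1, encodes a forkhead factor that Hedgehog signalling is known to induce in gut and lung mesenchyme. It went the opposite way, at 36.8, 32 and 46.3 normalized counts in H3.3K27M replicates 1, 2 and 3 and at 140, 113 and 115 in the others. Its means were 38.3 ± 7.25 and 122.5 ± 15.0 (SD, n = 3 each). Its fall in the authors' deposited table was 3.2-fold with adjusted p = 0.0135. It rests on few reads, between 31 and 48 per H3.3K27M tumour. In GENCODE M21 no other gene shares exon bases with Smo, Ptch1 or Cdon, and a microRNA gene covers 4.06% of those of Foxf1.

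The listed genes nearest to each member were found by the root mean square difference over the 6 tumours, in log2(normalized count + 1) centred on each gene's own mean. Nearest to Smo were Nap1l3, a nucleosome assembly protein (0.10), Prrg3, a transmembrane protein (0.11), and Oprl1, the nociceptin receptor (0.15). They were followed by Ap1s2, a clathrin adaptor subunit (0.15), and Mtap7, a microtubule-binding protein (0.16). Their folds in the authors' deposited table lay between 1.84 for Mtap7 and 2.3 for Nap1l3. Nap1l3, Prrg3 and Ap1s2 lie on the X chromosome, which holds 4 of the 223 listed genes. Neither Xist nor any gene placed on the Y chromosome is in the table, so the sex of the mice could not be checked at them. Nap1l3, Prrg3, Ap1s2 and Mtap7 had their highest level in the same tumour as Smo, H3.3K27M replicate 1. Nap1l3 was at 527 normalized counts there, against 378 and 410 in replicates 2 and 3. For Ap1s2 replicate 3 was close, at 698 against 702 in replicate 1. Oprl1 was highest in H3.3K27M replicate 2, at 813.

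Nearest to Ptch1 were Itgb8, an integrin subunit (0.08), Nr1d2, a clock repressor (0.10), and Fzd3, a Frizzled receptor of Wnt and planar polarity signalling (0.11). Gpam, an enzyme of glycerolipid synthesis (0.12), and the predicted gene Gm17321 (0.12) came next. Their folds in the authors' deposited table lay between 1.53 for Gm17321 and 1.76 for Fzd3. Among tumours without H3.3K27M, replicate 3 held the highest level of each, as of Ptch1, at 1425 normalized counts of Itgb8, 1754 of Nr1d2, 310 of Fzd3, 1309 of Gpam and 1370 of Gm17321. Between Smo and Ptch1 the difference was 0.34, which made Ptch1 the 62nd nearest gene to Smo and Smo the 53rd nearest to Ptch1 among 222. The median difference to the other listed genes was 0.57 from Smo and 0.68 from Ptch1. Every one of these genes was listed for a difference between the same groups, and the nearest were picked over the same 6 tumours, so a shared profile between or within groups follows from the choice.

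**Figure D4:**
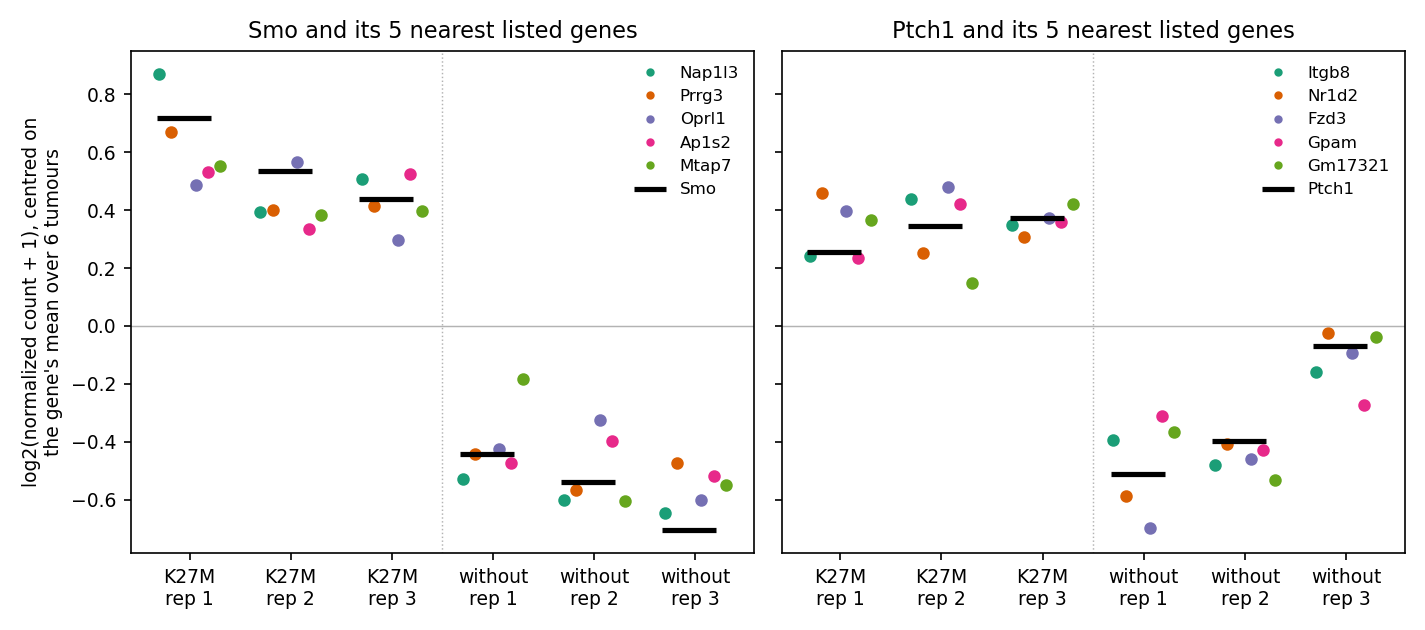
Log2(normalized count + 1) centred on each gene's mean over 6 tumours (y axis), by tumour (x axis), for Smo (left, black bars) and Ptch1 (right, black bars) with the 5 nearest listed genes of each as coloured points. On the right, every gene is highest in replicate 3 among the tumours without the mutation, and on the left Smo is lowest in that tumour.

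In bulk tumours, more cells of a type and more RNA per cell cannot be told apart, and cell type markers moved with the same groups. The counts of markers below stand beside 1.36% of all tested genes that are in the table, 1.11% as higher, and 81.6% of listed genes were higher. The marker lists were drawn up with earlier results of these data known, so counts above those shares are a description only. Sums of listed markers lie apart between the groups because their members were selected for that difference. Of 14 astrocyte and Bergmann glia markers, cells in which Hedgehog receptors are known to be expressed, 3 are in the table, all higher. Their summed level was 1883 to 3446 normalized counts with and 804 to 1021 without H3.3K27M. The leading ones were the bicarbonate transporter Slc4a4 and the water channel Aqp4, with rises of 2.92-fold and 2.99-fold and adjusted p-values of 0.0361 and 9.62e-04 in the authors' deposited table. Within the groups the summed level had the order of neither member. It was lowest in H3.3K27M replicate 2 and highest in replicate 3, where Smo was lowest and Ptch1 highest. Without H3.3K27M the summed level was lowest in replicate 2 and highest in replicate 1, where Smo was highest and Ptch1 lowest.

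Of 12 markers of cerebellar granule cells and their progenitors, the cells best known for Hedgehog responses in the hindbrain, only Barhl1 is in the table, at 28.9 to 66.5 with and 1.09 to 8.05 normalized counts without H3.3K27M. The defining progenitor gene Atoh1 and the granule cell gene Gabra6 are not in it. Of 17 neuron markers, 8 are in the table, all higher, with a sum of 3078 to 7226 against 672 to 1478. Cplx1 and Slc12a5 led them. Of 10 oligodendrocyte lineage genes, listed for precursors, 3 are in the table, all lower. Their sum was 15558 to 20170 against 24700 to 29655, led by Bcas1 and Kcnip3. Whether these 3 mark precursors or later cells of the lineage was not tested. Pdgfra and Olig2, which mark this lineage and PDGF-driven gliomas, are not in the table, so the tissue label could not be checked at them.

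Of 10 mural, fibroblast and meningeal markers, 3 are in the table, all higher, at 1116 to 1764 against 280 to 556, led by Dcn and Lum. Of the sums of the 8 marker lists with a member in the table, this one had the order of Ptch1 within both groups, highest in replicate 3 and lowest in replicate 1. In this sum replicates 1 and 2 were close, at 1116 and 1176 normalized counts with H3.3K27M and 280 and 301 without it. Counting error was not computed for the sums. Of the other 222 listed genes, 2.25% had the order of Ptch1 in both groups. Dcn and Lum themselves had that order only in the tumours without H3.3K27M. With H3.3K27M both were lowest in replicate 2, at 567 and 305 normalized counts, against 607 and 327 in replicate 1. None of the 8 sums had the order of Smo in both groups, and the neuron and granule cell sums had it in the tumours without H3.3K27M. The granule cell sum is Barhl1 alone, at 8.05, 6.83 and 1.09 normalized counts in replicates 1, 2 and 3 there, so its order rests on few reads. The lists of myelinating oligodendrocytes (1 of 9, Ermn), microglia and macrophages (1 of 8, Chi3l3) and ependyma and choroid plexus (1 of 7, Otx2) each had 1 member, higher with H3.3K27M. Their levels were 80.6 to 217 against 18.5 to 31.2 normalized counts for Ermn, 12.4 to 39.5 against 0 to 1.95 for Chi3l3, and 153 to 239 against 0 to 48.8 for Otx2. None of the 6 Purkinje cell or 7 endothelial markers is in the table. The part of any of these cell types in the levels of Smo and Ptch1 was not tested.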

How the data were processed

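RNA was sequenced from 6 snap-frozen brainstem gliomas, 3 with and 3 without H3.3K27M, which the series' design text calls independent, so each tumour was 1 replicate. Groups come from the titles and replicates were numbered in sample order. Tumour columns were matched by the number that opens each title, with 0 columns left unmatched. The submitters' processing notes name DESeq and the builds mm9 and NCBIM37. Aligner, counter and use of strand are not stated in these sources.

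Per the file headers, the authors deposited per tumour a signal of normalized counts, the group means, the fold or ratio of these means, also as log2, and p-values before and after adjustment. The Benjamini-Hochberg formula with 16365 tests returned every adjusted p, all under 0.05. In each column 100% of values were whole multiples, within 0.01, of 1 step. Taking a step as 1 read gave size factors of 0.917 to 1.06 and 215758 to 277881 reads over the listed genes. Total depth is unknown, and low values are too few to settle that reading, so no count test was run.

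Means, SDs, ratios and distances (pseudocount 1) were computed with Python 3.11.15, numpy 2.4.6 and pandas 2.3.3; matplotlib 3.10.9 drew the plots. Reading of steps, test number and distances were tested on simulated data. The text names Smo, Ptch1, every Hedgehog list gene in the table, the 5 nearest genes of each member and at most 2 genes per marker list. The members and lists were chosen with earlier results of these data known. Of the 223 gene IDs, 220 matched GENCODE M21, and older symbols were matched through it and RefSeq. Protein sequences were not used here.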

Additional observations from a re-analysis of the deposited data

How the results depend on the processing

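The groups do not overlap in Smo or Ptch1, so pseudocounts of 1 and 10, group medians or a left-out tumour could not turn the direction of their ratios, and only the sizes are informative. Against the SDs of both groups combined on the log2 scale, 0.20 for Smo and 0.24 for Ptch1, no alternative moved a ratio by more than 0.08 for Smo or 0.14 for Ptch1. Undoing the size factors gave 2.28 for Smo and 1.64 for Ptch1, and medians gave 2.11 and 1.68. With 1 tumour left out, Smo lay between 2.07 and 2.28, Ptch1 between 1.47 and 1.72, and the ratio of Smo over that of Ptch1 between 1.21 and 1.56. At an adjusted p under 0.001, 1 of the 4 Hedgehog list genes remained called, Smo. At an adjusted p under 0.01, 78 genes were higher in place of 182, which follows from the stricter threshold. At that threshold 3 of the 4 list genes passed, and an exact match of symbols, an alternative chosen after seeing the data, found 3 because it leaves out Foxf1a. No paired analysis was possible because the replicate numbers only name the tumours and no label pairs tumours across the groups. The number 623 that H3.3K27M replicates 1 and 2 share lies within 1 group. The table holds no gene above the authors' threshold, so the other pathway genes could not be measured, and the depth of the libraries is unknown.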
